A study of Mus musculus with 6 samples.

Results

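The 36 genes described here are mouse genes induced by type I interferon. They were taken as a list of symbols (Ifit1, Ifit2, Ifit3, Ifit3b, Isg15, Usp18, Rsad2, Oasl1, Oasl2, Oas1a, Mx1, Ifi44, Ifi44l, Ifi204, Ifi207, Ifi209, Ifi202b, Irf7, Irf9, Rtp4, Phf11b, Phf11d, Xaf1, Tor3a, Ly6e, Trim30a, Trim30c, Stat2, Zbp1, Ifih1, Herc6, Parp14, Bst2, Cmpk2, Slfn5 and Ifi35), and 36 of 36 were found among the 31053 genes of the count matrix. Each of the 36 had at least 50 unique molecular identifiers (UMIs, one per captured transcript), a minimum that 12149 genes reached. The cells were CD45+ cells sorted from the brains of SCID mice, implanted with U87, an established human glioma line. The labels give an age of 6 to 8 weeks without saying whether at implantation or at sacrifice. Each graft began with 50000 cells, and the 3 IL-33 mice, whose U87 cells expressed IL-33, were taken at 3 weeks and the 3 pcDNA mice, whose U87 cells held the pcDNA 3.1 vector without insert, at 6 weeks. SCID mice lack mature T and B lymphocytes, and both groups shared this host. The reads were aligned to the mouse genome, so transcripts of the human graft were not measured.

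Type I interferons are secreted cytokines that bind the receptor made of Ifnar1 and Ifnar2, whose kinases Jak1 and Tyk2 activate transcription factors such as Stat2. Stat2 and Irf9 are parts of a complex that binds interferon-stimulated response elements (ISREs) in the promoters of its target genes. The targets include antiviral effectors, sensors of foreign nucleic acid, and parts of the pathway itself, such as Irf7, Stat2 and Irf9. In the brain, microglia and infiltrating monocytes can both mount this response, and a subset of microglia that expresses it is a recurrent finding of single-cell studies of disease and ageing.

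The promoters of several members show the sequence through which the response works, and they are given here because the levels reported later are those of the transcripts they drive. RefSeq promoters on GRCm38.p6, each of 300 bases from 250 before to 50 after the annotated start, were matched by symbol for 28 of 36 members. Usp18, Mx1, Ifi204, Rtp4, Tor3a, Ly6e, Zbp1 and Parp14 had no match. An ISRE core was searched as GAAANNGAAA on both strands. It was found in 13 of 28 members (46.4%) and in 3.99% of all 27025 symbols with a promoter of this length. The members' promoters held 21 matches in all, some of which overlap each other, and 19 lay before the start, between 14 and 222 bases from it (median 104). The gamma-activated site, searched as TTCNNNGAA, which reads the same on both strands, was found in 6 of 28 members and in 9.55% of all symbols. In the sequences that follow, 5′ to 3′ on the strand of the gene, capitals mark the ISRE core matches. A match on the opposite strand appears as the reverse complement of these letters. The first 5 are members with a match, and they include the member with the highest ratio in the cells described later (Rsad2) and the closely related pair Ifit3 and Ifit3b. Stat2 is a part of the pathway with a match, and Irf9, which binds Stat2, had none in either of its RefSeq promoters, of which the first is shown. Both Irf9 windows begin inside the gene as annotated in GENCODE vM21 (start 55603571), so the sequence around that start was not searched. The Slfn5 window, which begins at 82951852, likewise lies past the GENCODE start of Slfn5 at 82951349.
Ifit1, chr19:34640639-34640938, plus strand: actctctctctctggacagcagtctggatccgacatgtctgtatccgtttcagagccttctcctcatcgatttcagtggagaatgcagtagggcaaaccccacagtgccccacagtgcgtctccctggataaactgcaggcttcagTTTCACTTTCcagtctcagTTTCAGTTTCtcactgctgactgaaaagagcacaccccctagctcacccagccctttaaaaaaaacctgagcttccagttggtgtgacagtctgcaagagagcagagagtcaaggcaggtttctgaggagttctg
Ifit3, chr19:34583279-34583578, plus strand: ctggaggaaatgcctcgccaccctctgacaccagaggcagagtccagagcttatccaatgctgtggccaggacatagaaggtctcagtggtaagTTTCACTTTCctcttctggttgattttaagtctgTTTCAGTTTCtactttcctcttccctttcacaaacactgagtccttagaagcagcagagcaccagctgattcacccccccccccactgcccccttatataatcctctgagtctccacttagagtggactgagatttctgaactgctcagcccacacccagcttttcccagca
Ifit3b, chr19:34607707-34608006, plus strand: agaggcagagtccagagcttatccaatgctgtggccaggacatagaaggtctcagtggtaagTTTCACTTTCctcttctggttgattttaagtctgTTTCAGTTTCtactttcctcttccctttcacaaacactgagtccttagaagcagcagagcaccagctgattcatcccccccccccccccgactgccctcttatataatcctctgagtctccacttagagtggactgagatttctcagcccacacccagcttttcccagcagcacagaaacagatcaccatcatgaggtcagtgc
Isg15, chr4:156200769-156201068, minus strand: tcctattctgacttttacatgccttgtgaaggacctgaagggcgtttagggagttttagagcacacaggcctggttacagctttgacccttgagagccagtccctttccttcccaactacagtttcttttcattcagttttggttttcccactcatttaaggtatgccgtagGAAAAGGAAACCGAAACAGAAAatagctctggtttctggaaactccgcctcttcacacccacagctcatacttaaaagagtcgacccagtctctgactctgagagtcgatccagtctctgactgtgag
Rsad2, chr12:26456403-26456702, minus strand: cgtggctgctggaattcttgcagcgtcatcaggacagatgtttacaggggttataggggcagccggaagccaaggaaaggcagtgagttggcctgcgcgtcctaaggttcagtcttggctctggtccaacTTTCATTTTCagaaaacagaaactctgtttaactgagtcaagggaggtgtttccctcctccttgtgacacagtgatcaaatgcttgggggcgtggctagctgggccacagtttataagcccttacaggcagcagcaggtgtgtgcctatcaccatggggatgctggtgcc
Stat2, chr10:128270248-128270547, plus strand: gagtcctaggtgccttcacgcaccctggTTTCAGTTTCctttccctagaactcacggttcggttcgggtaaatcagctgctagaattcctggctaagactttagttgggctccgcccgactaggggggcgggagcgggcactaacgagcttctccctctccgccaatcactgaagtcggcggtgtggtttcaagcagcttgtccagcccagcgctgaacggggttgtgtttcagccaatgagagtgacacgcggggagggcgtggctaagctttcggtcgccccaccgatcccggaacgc
Irf9, chr14:55603735-55604034, plus strand: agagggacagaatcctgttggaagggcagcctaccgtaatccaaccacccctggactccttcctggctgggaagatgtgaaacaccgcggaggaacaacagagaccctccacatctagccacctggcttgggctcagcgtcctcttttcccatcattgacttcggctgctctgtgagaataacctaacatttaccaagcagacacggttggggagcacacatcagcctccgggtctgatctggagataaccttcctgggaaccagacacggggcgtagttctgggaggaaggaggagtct

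In Isg15 the 3 matches overlap in a single run that begins 78 bases before the start. Ifit1, Ifit3 and Ifit3b each held a pair of separate matches, and Ifit3 and Ifit3b had theirs at the same spacing (156 and 122 bases before the start in Ifit3, 188 and 154 in Ifit3b). Several members are neighbours on GRCm38. The 4 Ifit genes lie within 99.3 kb of chromosome 19 (34550694 to 34650009), and the 4 genes of the PYHIN family of DNA-binding proteins (Ifi204, Ifi207, Ifi209 and Ifi202b) within 351.8 kb of chromosome 1 (173630917 to 173982744). Ifi44 and Ifi44l are adjacent on chromosome 3, Rsad2 and Cmpk2 on chromosome 12, Phf11b and Phf11d on chromosome 14, and Trim30a and Trim30c on chromosome 7. Reads that fit near-identical copies could be split or dropped by the counting, so the values of Ifit3 and Ifit3b, of the Phf11, Trim30, Oasl and PYHIN genes carry this uncertainty. Irf9 (with Rnf31) and Rtp4, Herc6 and Parp14 (each with a predicted gene) overlap another gene on the same strand.

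The matrix pools 6 libraries into 40411 barcodes, which end in a suffix from 1 to 6, and no sample label ties a suffix to a mouse. It was therefore treated as 1 pooled sample. The IL-33 and pcDNA groups were not compared and no p-value was computed. Suffixes serve only to show the range of a value, and were not assigned to the IL-33 or pcDNA group or used as replicates. Per suffix there were 9745192 to 24393841 UMIs, and the median passing cell held from 1523 (suffix 5) to 3484 UMIs (suffix 3). The filters of the study's methods left 38751 barcodes. Before any result, the libraries were found to share barcodes. The 40411 barcodes held 29579 distinct sequences, and 3890 sequences occurred under more than 1 suffix, which made up 14722 barcodes (36.4%). The 15 pairs of suffixes shared between 509 and 3428 sequences. Between the copies of a sequence, the log-transformed share of UMIs on Apoe correlated at r = 0.757 to 0.897, as a description across barcodes. The share on the members, not log-transformed, correlated at r = 0.444 to 0.821, so these ranges are not on the same scale. Passing barcodes with a shared sequence had a median of 927 UMIs, against 3117 for sequences of 1 suffix. Results are given for all passing barcodes, called cells here, and repeated for the 24262 cells whose sequence had 1 suffix.

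Cells were assigned to lineages by gates on marker genes, none of which is a member. A gate asked for at least 3 UMIs and 0.3% of a cell's UMIs on its own markers, with every other lineage list under 20% of that number. The microglia gate (P2ry12, Tmem119, Sall1, Siglech, Gpr34 and Olfml3) took 34792 cells, the monocyte gate (Ccr2, Ly6c2, Vcan, F10 and Cd209a) 134, the NK gate 116, the granulocyte gate 90 and the choroid plexus gate 229, and 3390 cells met none. The border-associated macrophage gate took 0 cells. Of its markers, Lyve1 had 0 UMIs in the matrix, Cd163 10, Pf4 25 and Cbr2 34, whereas Mrc1 had 500 and F13a1 476. Ptprc, which encodes CD45, was at 324 CPM (counts of a gene per 1000000 UMIs of the group) in microglia-gated cells. In choroid plexus-gated cells it was at 59.4 CPM, so these carried little transcript of the protein on which cells were sorted. The study left a cluster of choroid plexus epithelial cells out of its analysis as not immune.

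The members were higher in monocyte-gated than in microglia-gated cells. In microglia-gated cells 0.0847% of UMIs lay on the 36 genes (exact Poisson 95% interval 0.0841 to 0.0853%, as all such intervals covering counting error only). In the 6 suffixes this share ran from 0.0625 to 0.122%. In monocyte-gated cells the share was 0.345% (interval 0.331 to 0.360%), 4.08 times as high (interval 3.91 to 4.25). The pair of suffixes with at least 20 monocyte-gated cells stood at 0.314 and 0.431%, both above the highest suffix of the microglia. With sequences of 1 suffix only, the shares were 0.0820 and 0.350%. Cells of the monocyte gate came from all 6 suffixes but unevenly (1, 5, 1, 54, 19 and 54 cells), and they were deeper than microglia (median 5018 against 2531 UMIs). The microglial share in suffixes 1 to 6 was 0.0809, 0.0625, 0.0662, 0.095, 0.122 and 0.0951%. The pooled ratios and counts were not matched by suffix, so they also hold this difference between suffixes. Of the 36 members, 30 were at least 2-fold higher in monocytes and 0 at least 2-fold lower. Among the 12149 genes with at least 50 UMIs, 16.4% were 2-fold higher and 20.7% 2-fold lower. The median ratio was 3.87 over the members and 0.924 over all these genes.

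The order of the ratios differed between families. The PYHIN genes Ifi209 (112 CPM in monocytes, 4.70 CPM in microglia, ratio 23.9) and Ifi204 (187 against 8.86 CPM, ratio 21.2) had the highest. These microglial levels pool all 6 suffixes, whereas most monocyte-gated cells came from suffixes 4, 5 and 6. In those suffixes microglial Ifi204 stood at 12.7, 16.4 and 11.8 CPM. Ifi35 stood at 66.2, 77.2 and 63.2 CPM there, around its pooled 67.8 CPM. Irf7, the transcription factor that amplifies interferon production, stood at 344 CPM against 20.4 CPM, a ratio of 16.9. Slfn5, a member of the Schlafen family, also had a ratio of 16.9, and Zbp1, a sensor of nucleic acid in the Z form, one of 14.6. Cmpk2, a mitochondrial nucleotide kinase, had a ratio of 18.0, on 16 UMIs in monocytes. The ubiquitin-like modifier Isg15 was at 221 CPM in monocytes and at 41.9 CPM in microglia (ratio 5.28). The membrane proteins Ly6e and Bst2, the latter known as tetherin, had ratios of 3.16 and 3.72. The Ifit genes, whose products bind viral RNA, were spread widely, from 9.37 for Ifit1 and 2.62 for Ifit2 to 1.29 for Ifit3 (18.4 against 14.3 CPM). These values rested on single suffixes, since without suffix 4 the ratio was 3.28 for Ifit1 and 0.670 for Ifit3, and without suffix 6 that of Ifit1 was 15.0. Likewise Rsad2 (10.2) moved to 5.46 without suffix 4 and 16.6 without suffix 6, Trim30c (12.3) to 6.15 without suffix 4, and Ifit3b (2.75) to 1.23 without suffix 6 and 4.45 without suffix 5. Irf9 (1.19), Ifi35 (1.93) and the RNA sensor Ifih1 (1.98) were under 2-fold, and Tor3a (0.837) and Phf11d (0.681) were the members below 1 among the 36.

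**Figure D1:**
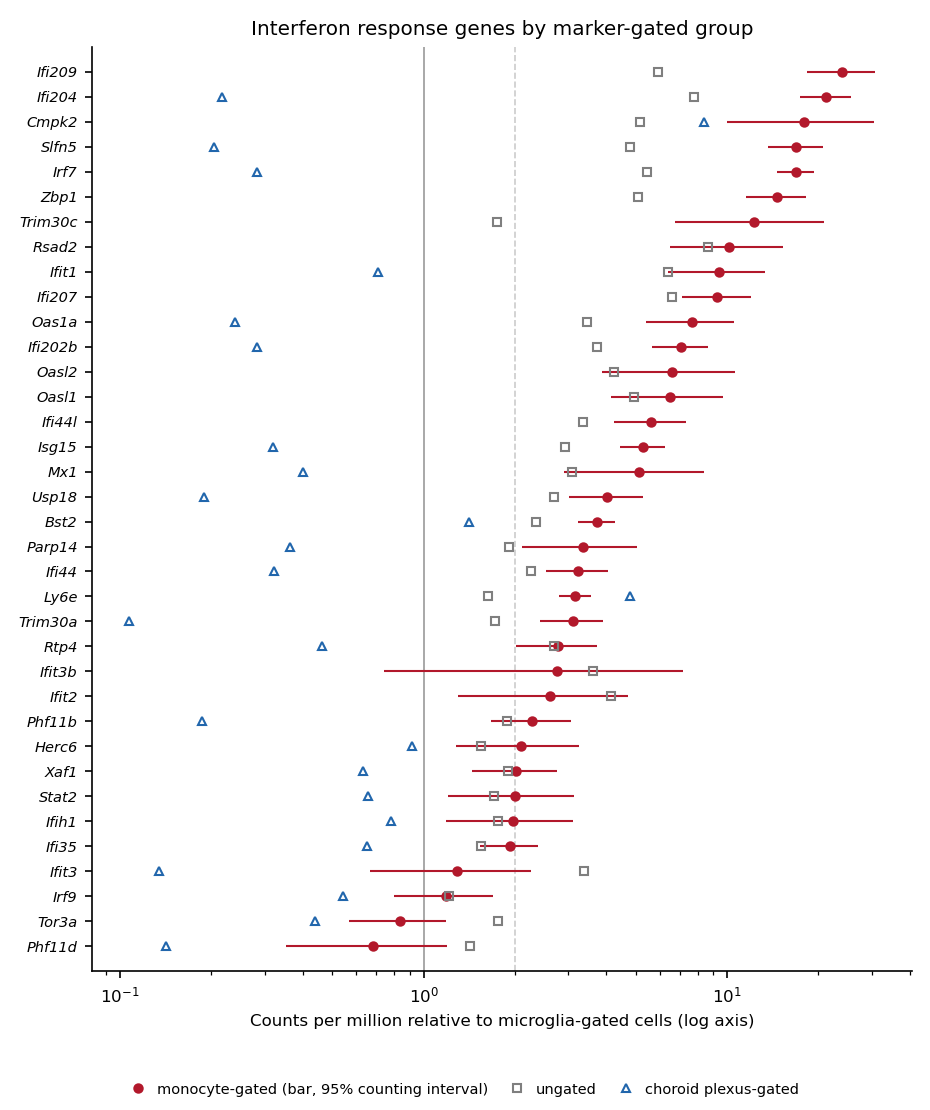
Ratio of CPM to microglia-gated cells (log axis) for each of the 36 genes in monocyte-gated cells (red points, bars 95% counting intervals), ungated cells (grey squares) and choroid plexus-gated cells (blue triangles, drawn where at least 1 UMI was counted). The solid line marks a ratio of 1 and the dashed line a ratio of 2. In 30 of 36 genes the red point lies at or beyond the dashed line, with Ifi209 at 23.9 and Phf11d at 0.681 as the ends.

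Within the monocyte gate the summed share of the members followed Ly6c2, which marks classical monocytes fresh from the blood. This split was made after the data were seen, and Ly6c2 is itself an interferon-responsive gene as well as a marker of the gate. The 83 cells with a Ly6c2 UMI had 0.466% of UMIs on the members (interval 0.445 to 0.488%), whereas the 51 cells without had 0.163% (interval 0.148 to 0.179%). The depth of the cells was similar (medians 4897 and 5164 UMIs). The 4 MHC class II genes went the other way, at 5898 CPM with and 38982 CPM without Ly6c2. Cd209a, a marker of the gate, also did, at 812 CPM with and 3083 CPM without. Whether the 83 and 51 cells differ in type or in state was not tested. Of the 36 members 24 were at least 2-fold higher in Ly6c2-positive cells, compared with 6.83% of all genes. The latter share is over 12149 genes, including those with too few UMIs for a ratio here, so it is a low estimate. At least 2-fold lower were 0 members (share of all genes not given). Ifit2, Ifit3, Ifit3b, Rsad2 and Cmpk2 had 0 UMIs in the cells without Ly6c2, and their ratios were taken against 3 UMIs as lower bounds. Isg15 was at 340 CPM with and 42.4 CPM without Ly6c2, Irf7 at 524 and 73.2 CPM, and Ly6e at 682 and 80.9 CPM. Slfn5 (171 and 139 CPM), Ifi35 (110 and 162 CPM), Stat2 (23.0 and 38.5 CPM) and Parp14 (33.2 and 38.5 CPM) did not share this difference, and their intervals of the ratio all included 1. The interval also included 1 for Oasl2, Ifi44l, Ifi207, Phf11d, Xaf1, Tor3a, Trim30a and Trim30c, with ratios from 1.51 to 3.31. Of these, Oasl2 and Trim30c were among the 24 at least 2-fold higher. The lower bound for Ifit3b was 0.884.

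NK-gated and granulocyte-gated cells lay near microglia in the summed share. It was 0.0829% in NK-gated cells (interval 0.0712 to 0.0959%) and 0.0704% in granulocyte-gated cells (interval 0.0592 to 0.0830%). The ratio to microglia was 0.979 for NK cells (interval 0.841 to 1.13). For granulocytes it was 0.831 (interval 0.699 to 0.980), but 1.21 where the gate asked for 1% of UMIs and 1.02 where each cell was thinned to 500 UMIs. In NK-gated cells 7 members were 2-fold higher (20.4% of all genes) and 5 were 2-fold lower (14.3%). Those with more than a few UMIs were Irf7 (87.5 CPM, 4.29 times the microglial level), Zbp1 (50.7 CPM, 5.40 times), Phf11b (73.7 CPM, 2.38 times) and Ifi209 (36.8 CPM, 7.84 times). Ly6e was lower in NK-gated cells, at 36.8 CPM (0.263 times). In granulocyte-gated cells 6 members were 2-fold higher (10.8% of all genes) and 8 were 2-fold lower (20.4%). Isg15 (110 CPM, 2.62 times) and Rtp4, a chaperone of receptor transport (59.9 CPM, 2.41 times), were the higher ones with over 10 UMIs. For both gates the members' share of 2-fold differences was near that of all genes. These are values from 180 and 141 member UMIs, and 3 and 10 members respectively had too few UMIs for a ratio. The number of members 2-fold lower moved to 2 in NK-gated cells without suffix 6 and to 4 in granulocyte-gated cells without suffix 2.

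In choroid plexus-gated cells 1 gene set the sum. The summed share was 0.103% (interval 0.0941 to 0.112%), above that of microglia, but 349 of the 535 UMIs lay on Ly6e, a GPI-anchored surface protein, which stood at 669 CPM against 140 CPM in microglia (4.78 times). Without Ly6e the ratio of the summed share to microglia was 0.504. Of the members 2 were at least 2-fold higher (13.8% of all genes), Ly6e and, on 6 UMIs, Cmpk2 (ratio 8.42), and 17 were at least 2-fold lower (33.5% of all genes), or 11 without suffix 1. The median ratio was 0.438 over the members and 0.657 over all genes. Isg15 was at 13.4 CPM, Irf7 at 5.75 CPM, Usp18, the protease that removes Isg15 from proteins, at 3.84 CPM and Trim30a at 3.84 CPM, all under the microglial levels and on 2 to 7 UMIs each.

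Cells outside all gates held more member transcripts than microglia. Their share was 0.206% (interval 0.203 to 0.210%), and 0.243% for sequences of 1 suffix. Most of these cells, 2654 of 3390, had microglial markers under the limit of the gate, and these stood at 0.228%. At least 2-fold higher were 23 members (8.96% of all genes), with a median ratio of 3.00 against 1.02 over all genes. At least 2-fold lower were 0 members (share of all genes not given). Rsad2, the antiviral enzyme viperin, reached 32.8 CPM against 3.78 CPM in microglia, Ifi204 68.9 against 8.86 CPM, and Ifit1 34.5 against 5.41 CPM. The median ungated cell held 1050 UMIs (3317 for sequences of 1 suffix). The summed lists of monocytes (405 CPM), NK cells (480 CPM) and granulocytes (364 CPM) were all higher in them than in microglia (5.41, 2.23 and 6.99 CPM). What these other transcripts contribute to the members' levels was not tested.

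The microglial transcripts of these genes were spread unevenly over cells. Of microglia-gated cells 33.5% had 0 UMIs on any member and 57.2% had 1 to 4, whereas 394 cells had 20 or more and 1 cell had 225. A cell was called high where at least 0.5% of its UMIs and at least 5 UMIs lay on the members. This limit chose cells on the members' own values, so the levels in them are a description. The 50 cells just inside the limit had from 0.5 to 0.528% and the 50 just outside 0.469 to 0.497%, without a gap between them. Of 34792 microglia-gated cells 605 were high (1.74%, exact binomial interval 1.60 to 1.88%), and they held 492 distinct sequences. Among sequences of 1 suffix 374 cells were high (1.66%). The high cells took 1.94% of the UMIs of microglia-gated cells but 23.3% of the UMIs on the members. Their median was 22 member UMIs on 13 different members, against 1 UMI on 1 member in other microglia, at similar depth (medians 2773 and 2529 UMIs). Across suffixes the share of high cells ran from 0.750% (suffix 3) over a median of 1.68% to 3.20% (suffix 5). In the monocyte gate 22 of 134 cells were high (16.4%), and in ungated cells 201 (5.93%). The NK and granulocyte gates each had 1 high cell. The choroid plexus gate had 0 of 229, which allows a share of up to 1.31% (3 counts of the total).

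**Figure D2:**
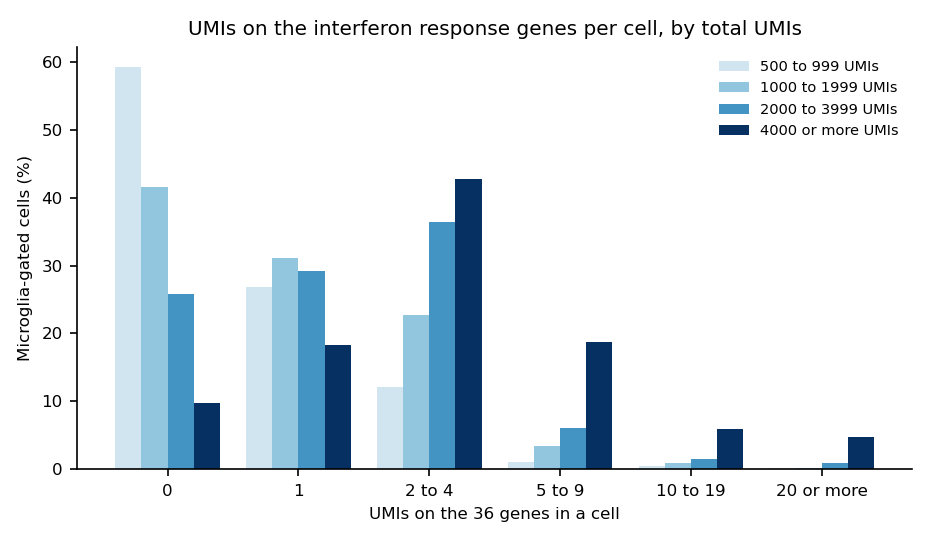
Percent of microglia-gated cells (vertical axis) by the number of UMIs on the 36 genes in a cell (horizontal axis), with 1 bar for each class of total UMIs, each class adding up to all its cells. Cells with 20 or more UMIs on the members are in every depth class, from 0.135% of cells with 500 to 1000 UMIs to 4.66% of cells with 4000 or more, while 0 is the most frequent class below 2000 UMIs.

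To describe each gene without its own values, high cells were chosen again on the other 35 members. On this choice 36 of 36 members were at least 2-fold higher in high than in other microglia-gated cells, where 6.22% of all genes were. Each was higher in 5 of 5 suffixes with at least 20 high cells. The ratio was at least 10-fold for 27 members, and for 28 with sequences of 1 suffix. Genes at least 10-fold higher are by definition within the 6.22% of all genes at 2-fold, and their own share is not given. Over all 36 the median ratio was 25.2, and 29.3 with sequences of 1 suffix. The cells were still chosen on genes of the same list, so these ratios describe how the members occur together in cells and are not a test. The list itself was chosen with earlier results of these data known. Members such as Ifit3, Isg15, Usp18 and Irf7 are top genes of the study's interferon response cluster from these cells. The study named that cluster bone-marrow-derived macrophages. Here 605 of the 830 high cells passed the microglia gate and 22 the monocyte gate. Whether the high cells and that cluster are the same cells was not tested. The share of all genes is therefore not a matched comparison.

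Rsad2, Ifit3b and Ifit1 had the highest ratios. Rsad2 was at 177 CPM in cells high for the others and 0.360 CPM in the rest, a ratio of 493 (interval 340 to 738) that moved to 888 without suffix 5, and 90.7% of its microglial UMIs lay in the high cells. Cmpk2, its neighbour on chromosome 12, had a ratio of 87.6 (44.7 against 0.511 CPM). The 4 Ifit genes lay close together, at 119 for Ifit3b, 115 for Ifit1, 104 for Ifit3 and 103 for Ifit2, with overlapping intervals. Ifit3, the most counted of them, stood at 508 against 4.90 CPM. In total 9 members had more than 50% of their microglial UMIs in high cells (share of all genes not given).

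The oligoadenylate synthetase family, which senses double-stranded RNA, ranged from 71.4 for Oasl2 and 46.8 for Oasl1 to 16.0 for Oas1a. Mx1, a GTPase that blocks viral replication, had a ratio of 58.7. The PYHIN genes ran from 56.8 (Ifi204) and 44.1 (Ifi209) to 27.4 (Ifi207) and 23.0 (Ifi202b). Ifi44l and Ifi44 had ratios of 29.0 and 19.4.

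The genes of the Isg15 system differed in their pooled ratios. Usp18 had a ratio of 40.4 (474 against 11.7 CPM) and Isg15 one of 29.5 (823 against 27.9 CPM). Herc6, the ligase that attaches Isg15 to proteins in the mouse, had a ratio of 10.2 (127 against 12.4 CPM). Their intervals, which cover counting error only, did not overlap. Across suffixes the ratio ran from 23.0 to 71.2 for Usp18, from 24.0 to 34.0 for Isg15 and from 8.57 to 14.2 for Herc6. The suffix ranges of Usp18 and Isg15 thus overlapped, and that of Herc6 lay below both.

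The transcription factors differed most from each other. Irf7 was at 479 against 12.0 CPM (ratio 39.8, interval 36.2 to 43.8). Stat2 was at 106 against 12.8 CPM (ratio 8.24, interval 6.99 to 9.67). Irf9, which binds Stat2, was at 80.4 against 38.0 CPM, with the lowest ratio of the 36 (2.12, interval 1.77 to 2.52), and ran from 1.76 to 2.40 across suffixes. Among sensors Zbp1 had a ratio of 33.4 and Ifih1 one of 8.63. Members with a ratio under 10 were, beside these, Tor3a (9.79), Parp14 (9.78), Bst2 (7.35), Ly6e (7.04), Trim30a (5.92) and Ifi35 (4.08). Among the 28 members with a promoter, the 13 with the ISRE core shown earlier had a median ratio of 27.4 (5.92 to 493) and the 15 without one a median of 23.0 (2.12 to 103), with ranges that overlapped.

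**Figure D3:**
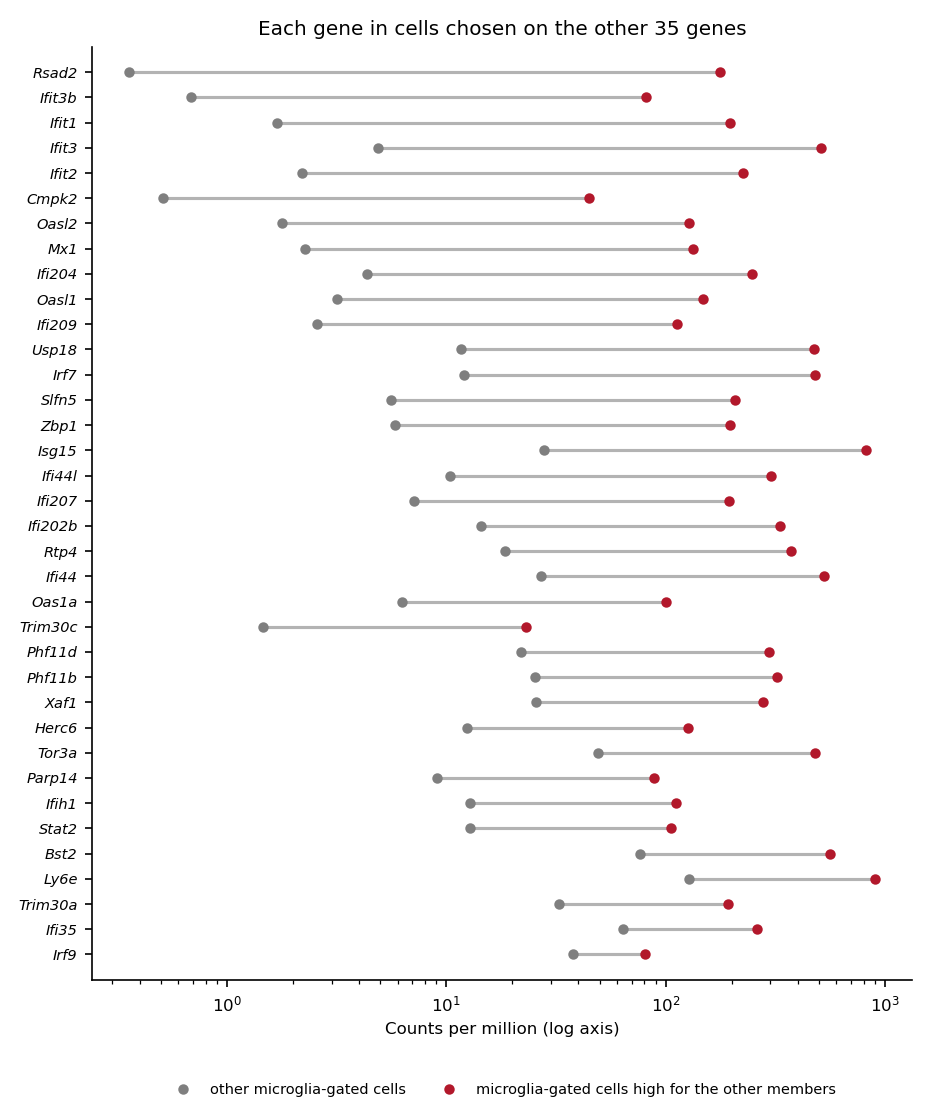
CPM of each gene (log axis) in microglia-gated cells that were high for the other 35 genes (red) and in the other microglia-gated cells (grey), ordered by ratio. All 36 red points lie to the right of their grey points, from Rsad2 (177 against 0.360 CPM) to Irf9 (80.4 against 38.0 CPM).

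Outside the microglia gate the members also occurred together. In ungated cells 35 of 36 members were at least 2-fold higher in cells high for the others, where 6.23% of all genes were, with a median ratio of 8.69. Rsad2 again led, with 347 against 1.27 CPM, and Irf9 was lowest (79.2 against 43.8 CPM, ratio 1.81).

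The summed microglial list was lower in high than in other microglia-gated cells, at 6815 against 10131 CPM (0.673 times, interval 0.660 to 0.685). All these cells had passed a gate on this list, which also kept the lists of the other gated lineages low in them. The 6 markers of B and T cells had 0 UMIs in them. The monocyte list (7.06 against 5.38 CPM), NK list (2.94 against 2.22 CPM) and granulocyte list (7.65 against 6.98 CPM) were near 0 in both. The border-associated macrophage list stood at 10.0 against 3.33 CPM, on 17 UMIs, with 3 of its 6 markers at 0. The plasmacytoid dendritic cell list was at 62.4 against 22.3 CPM, with 2 of its 4 markers at 0 and 1 at least 2-fold higher. The 4 MHC class II genes were at 964 against 371 CPM, the cycling list at 70.6 against 32.3 CPM, and the chemokine Ccl2 at 2570 against 690 CPM. Their part in the members' levels was not tested.

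Other genes of the pathway were compared between high and other microglia-gated cells by fixed lists. Of 21 interferon genes 18 had 0 UMIs over all cells. Ifnb1, which encodes interferon beta, had 344 UMIs in 214 cells. It stood at 35.9 CPM in high microglia and 2.68 CPM in other microglia (ratio 13.4, interval 9.92 to 17.8), higher in 5 of 5 suffixes. A single cell held 29 of the 61 Ifnb1 UMIs of the high cells, and without it the level was 18.8 CPM. Of the 182 microglia-gated cells with an Ifnb1 UMI 18 were high (9.89%), against 1.74% of all microglia-gated cells. Most cells with Ifnb1 were still not high. Cells with Ifnb1 were deeper than other microglia (median 3898.5 UMIs). Ifng, the type II interferon, had 90 UMIs, of which 43 were in NK-gated cells and 0 in high microglia.

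Of 11 receptors and signal transducers compared here 1 was at least 2-fold higher and 0 lower. In this comparison 6.22% of all genes were at least 2-fold higher, so the count was near that share. The higher gene was Socs1 (31.2 against 8.91 CPM, ratio 3.50, higher in 5 of 5 suffixes), which inhibits the receptor kinases. The receptor genes Ifnar1 (50.0 against 44.5 CPM) and Ifnar2 (205 against 223 CPM) and the kinases Jak1 (0.894) and Tyk2 (1.12) had ratios whose intervals included 1. Of 17 sensors and adaptors 5 were at least 2-fold higher (6.22% of all genes). The RNA helicases Dhx58 (ratio 8.77) and Ddx58 (7.29), the RNA receptor Tlr3 (4.04) and the DNA sensor Mb21d1 (2.42) were each higher in 5 of 5 suffixes, while Ikbke rested on 5 UMIs. The adaptors Mavs (0.711) and Tmem173 (0.808) were below 1.

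Of 30 other genes induced by type I interferon with at least 50 UMIs, 28 were at least 2-fold higher (6.22% of all genes). Examples are the membrane protein Ifitm3 (1320 against 47.5 CPM, ratio 27.8), the exonuclease Isg20 (92.4 against 4.05 CPM, ratio 22.8), the chemokine Cxcl10 (753 against 53.7 CPM, ratio 14.0) and the kinase Eif2ak2 (ratio 6.46). Lgals9 was just under the limit (1.99), and Ifi27 was lower in high cells (97.7 against 164 CPM, ratio 0.595) in 5 of 5 suffixes. Of 18 genes induced mainly by interferon gamma 16 were at least 2-fold higher (6.22% of all genes). The guanylate-binding proteins Gbp2 (ratio 15.3) and Gbp2b (21.1), Iigp1 (93.6) and Tap1, the peptide transporter (5.03), were among them, and Irf1 (1.97) and H2-Ab1 (1.92) were not. Of the 16, Ciita rested on 2 UMIs in high cells, with an interval of the ratio that included 1 (0.249 to 8.06). Cxcl9 and H2-Aa were higher in 3 of 5 suffixes and Cd74 in 4 of 5. Both lists share inducers, since many of their genes respond to either interferon.

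Likeness was measured by the pooled ratio between high and other microglia, among genes with at least 100 UMIs that were higher in 5 of 5 suffixes. The 10 genes outside the members with the highest ratio were Iigp1, Samd9l, Ifi214, Ifi211, Ifi47, Oas2, Phf11a, Ly6a, Oas1g and Ifitm3. Their ratios ran from 93.6 for Iigp1 to 27.8 for Ifitm3. Samd9l had 70.4 and Ifi214, a further PYHIN gene, 68.7.

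The members also differed between microglia split by genes outside the list, at limits set after the data were seen. The MHC class II and Ccl2 splits may not be independent of the interferon response. H2-Aa, H2-Ab1 and Cd74, used in the former, are on the list of genes induced mainly by interferon gamma. Ccl2 was itself higher in high cells (2570 against 690 CPM). The 14159 Apoe-high cells (at least 1% of UMIs on Apoe, a lipid carrier that rises in reactive microglia) had 0.111% of UMIs on the members and the 9897 Apoe-low cells (under 0.2%) 0.0667%. The ratio was 1.67 (interval 1.64 to 1.70), and 1.04 to 2.01 across suffixes, above 1 in 6 of 6. Apoe-high cells were shallower (medians 1290 and 2756 UMIs). Within cells of 2000 to under 4000 UMIs the ratio was 1.58, and with sequences of 1 suffix 1.75. The latter ratio rests on 4855 Apoe-high and 8969 Apoe-low cells, so most Apoe-high cells had a shared sequence and most Apoe-low cells did not. At least 2-fold higher were 19 members, compared with 3.75% of all genes, and 0 were lower (share of all genes not given). Rsad2 (8.35 against 0.698 CPM, ratio 12.0), Ifi207 (23.7 against 2.10 CPM, ratio 11.3) and Ifi204 (18.6 against 2.98 CPM, ratio 6.23) led. Without suffix 5 the ratio of Rsad2 was 20.1 and that of Cmpk2 moved from 3.59 to 6.62. Irf9 (41.4 against 40.7 CPM) and Herc6 (15.2 against 14.3 CPM) had intervals that included 1.

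The 4534 cells with at least 3 UMIs and 0.1% on Ccl2, a chemokine that draws monocytes, had 0.143% of UMIs on the members and the 24114 cells without Ccl2 0.0655%. The ratio was 2.18 (interval 2.14 to 2.22), 1.25 to 2.59 across suffixes, 1.94 within 2000 to 4000 UMIs and 2.45 for sequences of 1 suffix. Here 22 members were at least 2-fold higher (3.42% of all genes), and 26 were higher in 6 of 6 suffixes (share of all genes not given). Rsad2 stood at 13.4 against 0.915 CPM (ratio 14.6), Ifit1 at 16.6 against 2.36 CPM and Isg15 at 98.6 against 24.0 CPM. Ifi35 stood at 68.6 against 68.4 CPM. Trim30c had a ratio of 0.619, on 20 UMIs in the Ccl2-high cells, with an interval that included 1 (0.363 to 1.01).

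The 509 cells with MHC class II (at least 3 UMIs and 0.3% on the 4 genes) had 0.171% against 0.0784% in the 25990 cells without, a ratio of 2.18 (interval 2.10 to 2.26) that ran from 1.02 to 2.89 across suffixes. Of the members 22 were at least 2-fold higher (4.07% of all genes) and 2 lower (5.37%), the latter Ifit3b and Trim30c on 1 UMI each. Ifi204, Ifi202b, Irf7, Ly6e and Bst2 were higher in 6 of 6 suffixes, and the other members were not (share of all genes not given). Ly6e (373 against 128 CPM) and Zbp1 (47.1 against 7.53 CPM) were higher, the latter in 4 of 6 suffixes. In the 217 cells with at least 3 UMIs on the cycling list the share was 0.128% against 0.0833% in the 33828 cells with none, a ratio of 1.54 (interval 1.45 to 1.64). At least 2-fold higher were 6 members (16.5% of all genes) and 1 was lower (5.4%), so the members' count was near that of all genes. Isg15 (78.5 against 40.5 CPM), Ly6e (268 against 136 CPM) and Stat2 (29.0 against 14.5 CPM) were higher in 5 of 5 suffixes.

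**Figure D4:**
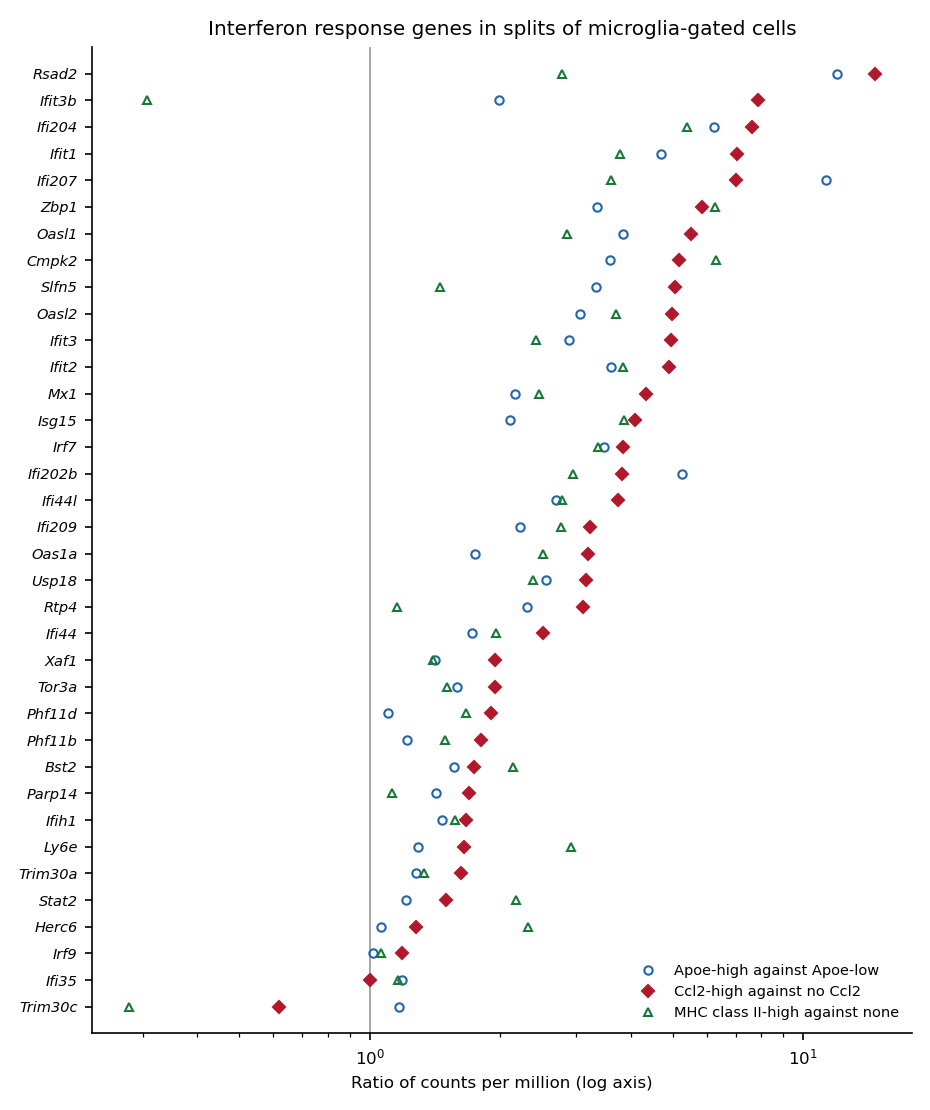
Ratio of CPM (log axis) for each gene between microglia-gated cells split by Ccl2 (red diamonds), Apoe (blue circles) and MHC class II (green triangles), ordered by the Ccl2 ratio. The line marks a ratio of 1. Rsad2 lies farthest right for Ccl2 (14.6) and Apoe (12.0), and Ifi35 and Irf9 lie near 1 in all splits shown.

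Levels in microglia-gated cells varied between suffixes to unequal extents. The ratio of the highest to the lowest suffix had a median of 2.76 over the members, from 1.31 to 10.9, and of 1.31 over the 10726 genes with at least 120 UMIs in microglia, the count of the lowest member. Genes were not matched on their number of UMIs for this comparison. Suffix 5 was highest for 32 of 36 members (33 with sequences of 1 suffix), compared with 20.3% of all these genes, and suffix 2 or 3 was lowest for 35, compared with 40.1%. The summed share differed 1.95-fold between the highest and the lowest suffix, and 1.52-fold without suffix 5. Suffix 5 also had the shallowest cells, and no sample label gives its mouse or group. Isg15 ran from 25.2 (suffix 2) over a median of 46.6 to 59.4 CPM (suffix 5). Irf7 ran from 10.7 over 19.3 to 41.2 CPM, and Rsad2 from 1.34 over 3.66 to 8.53 CPM, the last in suffix 6. The widest range was that of Ifit3b (0.578 to 6.30 CPM), on few UMIs. Ifi207 ranged 7.01-fold and Oasl2 7.41-fold. At the other end, Ifi35 (59.0 to 77.2 CPM), Herc6 (13.2 to 17.2 CPM) and Irf9 (34.3 to 45.6 CPM) had ratios near that of the median gene. Ifi35 and Irf9 were also the members with the lowest ratios in high cells.

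**Figure D5:**
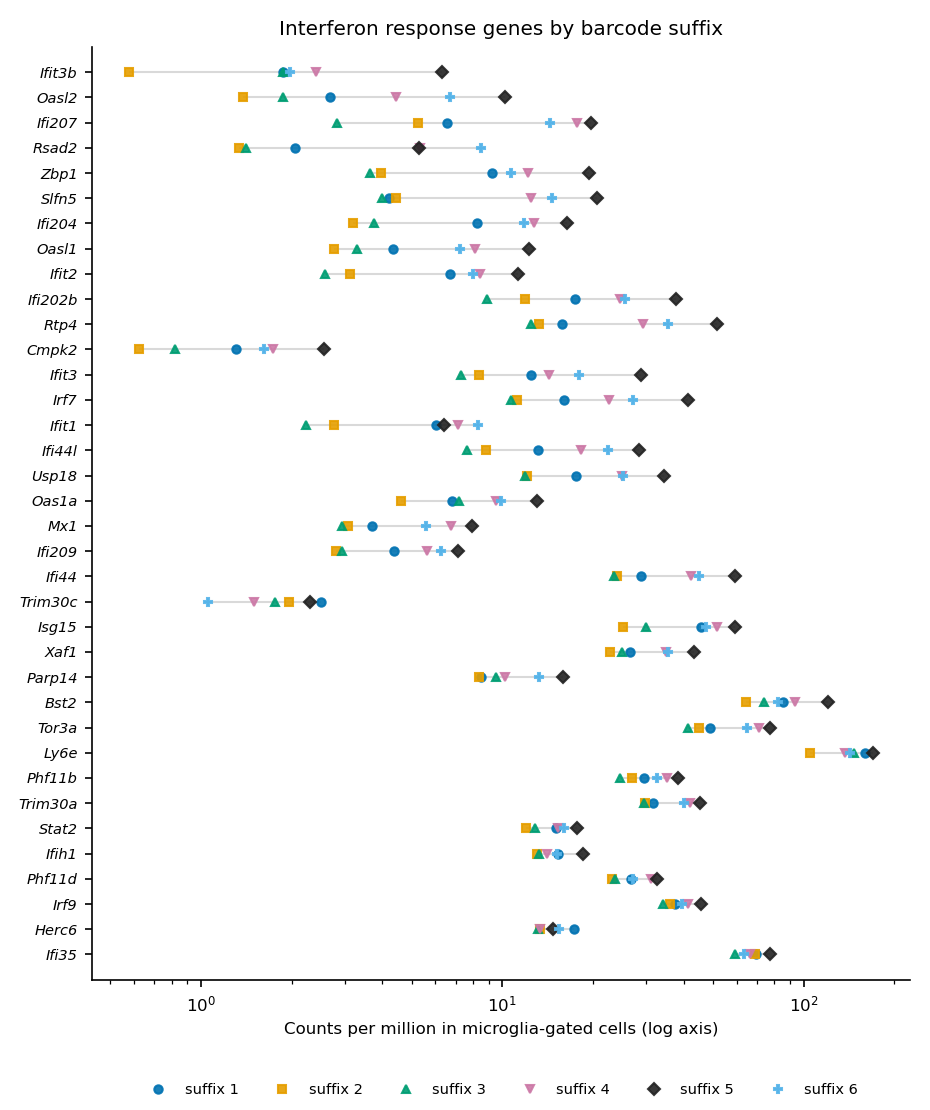
CPM of each gene in microglia-gated cells (log axis) in each of the 6 barcode suffixes, ordered by the ratio of the highest to the lowest suffix. Suffix 5 (dark diamonds) is the rightmost point for 32 of 36 genes, and the range widens from 1.31-fold for Ifi35 to 10.9-fold for Ifit3b.

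The summed share depended on the depth of the cell without a single direction. With the upper bound of each class left out of it, over all passing cells it was 0.102% in cells with 500 to 1000 UMIs, 0.0958% with 1000 to 2000, 0.0764% with 2000 to 4000 and 0.123% with 4000 or more. Among microglia-gated cells with a sequence of 1 suffix, the first 3 classes were nearly level (0.0749, 0.0710 and 0.0698%) and the deepest stood at 0.107%. High cells made up 1.43, 1.16, 1.19 and 3.38% of these classes. The median ratios of the members between high and other cells were 12.9, 19.2, 35.2 and 18.6 in these classes. High cells were chosen on genes of the same list, so raised ratios follow at least in part from this choice in every class. They are a description and cannot show whether the concentration holds across depth. The limit is a share of UMIs, so it also asks for more member UMIs in deeper cells.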

How the data were processed

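The authors prepared 10× Chromium 3′ libraries of sorted CD45+ cells, aligned the reads to mm10 with Cell Ranger (3.1.0 per the file headers, 3.1 in the submitters' processing notes, which also name Seurat 3.1.5) and joined the 6 libraries. The deposited matrix holds raw UMI counts per gene and barcode. The release of the annotation is not given in the sources used here. The number of unmapped columns set aside was 0.

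As in the methods of the study, a barcode needed more than 200 genes, no more than 2500, and less than 5% mitochondrial counts. This gene limit and the exclusive gates were the treatment of doublets, and no caller was run. UMIs were summed over the cells of a gate and given as CPM. Gates, gene lists and members were chosen with earlier results of these data known. All members may be named, beside genes of the pathway lists and the 10 genes with the highest ratio in high cells among genes with at least 100 UMIs. Mx2 and Lgp2 of these lists were not matched to a symbol, and 1 gene of them is not reported here. Where 1 side of a ratio had 0 UMIs, 3 UMIs were set in its place. Genes with too few UMIs for a ratio stayed in the number of genes compared. Shares of all genes are therefore low estimates in small gates. Intervals are exact at 95% (Poisson for levels, Clopper-Pearson for shares, conditional binomial for ratios) and cover counting error only. With 1 pooled sample there was no test. Coordinates are from GENCODE vM21 on GRCm38. Alternatives changed the filters, the gates, the depth, the limits for high cells, the members summed and the suffixes used, and those on shared barcodes and on cells of 2000 to 4000 UMIs were added after the data were seen. Python 3.11.15 with numpy 2.4.6, scipy 1.17.1, pandas 2.3.3 and matplotlib 3.10.9 was used, and the calculations were tested on simulated data.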

Additional observations from a re-analysis of the deposited data

Results flagged for a closer look

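Barcodes that the filters removed carried member transcripts above the level of the passing cells. The 1660 barcodes that failed had 0.149% of UMIs on the 36 genes (interval 0.147 to 0.152%), against 0.0943% in the passing cells. The 893 of them with over 2500 genes had 0.151% (interval 0.149 to 0.154%), at a median of 9250 UMIs, and the 762 with too many mitochondrial counts had 0.143%. These barcodes enter no comparison of the report. Whether they are single cells was not tested.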

How the results depend on the processing

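No paired analysis was possible because no test was made and no sample label maps a suffix to a mouse. Depth limits the NK, granulocyte and choroid plexus gates, where many members had under 10 UMIs. The results that changed direction were the granulocyte ratio (0.831), which was 1.21 with a gate at 1% of UMIs and 1.02 thinned to 500 UMIs, and the choroid plexus ratio (1.21), which was 0.504 without Ly6e. Among single genes, the Apoe ratio of Ifi35 fell to 0.924 with sequences of 1 suffix and the Ccl2 ratio of Herc6 to 0.7 when thinned. The choroid plexus value without Ly6e leaves out the gene that held 349 of the 535 member UMIs of that gate. What lay behind the other changes was not tested.

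The gate at 1% of UMIs lowered the members at least 2-fold higher in monocytes from 30 to 18 (share of all genes at this gate not given). It gave a monocyte ratio of 4.43, an NK ratio of 1.49, a choroid plexus ratio of 1.79 and a microglial share of 0.0573%. These ratios are to that lower microglial share, which was 0.0847% at the main gate. Allowing other lineages up to 40% gave an NK ratio of 1.36. The microglial share was 0.0887% with no filter, 0.0839% from 1000 UMIs, 0.0869% as a mean over suffixes, 0.0707% without Ly6e, 0.0820% with sequences of 1 suffix and 0.0828% with the deepest copy. The monocyte ratio (4.08) was 3.85 with no filter, 4.26 without Ly6e and 4.26 with sequences of 1 suffix. As a mean over suffixes with at least 20 cells it was 4.29, from 2 suffixes for monocytes and 6 for microglia. The value of 4.29 thus compares unlike sets of suffixes. The high share (1.74%) was 0.894% thinned, 0.664% at a limit of 1%, 4.04% at a limit of 0.3% and 1.22% within 2000 to 4000 UMIs.

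For no filter, from 1000 UMIs, thinned, mean over suffixes, without Ly6e, sequences of 1 suffix, deepest copy and 2000 to 4000 UMIs in this order, the Apoe ratio was 1.74, 1.71, 1.52, 1.52, 1.75, 1.75, 1.71 and 1.58, and the Ccl2 ratio 2.29, 2.27, 1.83, 2.08, 2.30, 2.45, 2.38 and 1.94. The MHC class II ratio was 2.03 with no filter, 1.99 thinned, 1.78 as a mean over suffixes, 2.04 without Ly6e, 2.34 with sequences of 1 suffix, 2.31 with the deepest copy and 2.06 within 2000 to 4000 UMIs. The cycling ratio was 1.68 with sequences of 1 suffix and 2.16 within 2000 to 4000 UMIs. The share in cells of 4000 or more UMIs over that of 2000 to 4000 (1.61) was 1.70 with no filter, 1.49 in microglia and 1.65 with sequences of 1 suffix, and that of 500 to 1000 (1.34) was 1.28 and 1.26 with sequences of 1 suffix and the deepest copy.

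When suffixes were left out singly, the values were 0.0790 to 0.0923% for the microglial share, 3.59 to 4.66 for the monocyte ratio, 0.932 to 1.08 for NK cells, 0.719 to 0.957 for granulocytes and 1.10 to 1.29 for choroid plexus. It gave 26 to 32 members at least 2-fold higher in monocytes (16 to 17% of all genes). The split ratios were 1.60 to 1.73 for Apoe, 1.84 to 2.36 for MHC class II, 1.34 to 1.65 for cycling and 2.07 to 2.30 for Ccl2. High cells made up 1.46 to 1.97%, with 25 to 29 members at least 10-fold higher (share of all genes not given).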
